A study of Mus musculus with 24 samples.

Results

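Activator protein 1 (AP-1) is a family of paired transcription factors that liver cells switch on within minutes of stress, growth signals or loss of blood supply. A Fos protein cannot pair with itself and binds DNA beside a Jun protein, whereas Jun proteins can also pair with each other. Atf3, Maff and Batf belong to the same basic leucine zipper class and join or compete with these pairs: Atf3 is a stress-induced member that often represses, Maff is a small Maf protein with no activation domain of its own, and Batf pairs with Jun proteins, mainly in immune cells. Messenger RNA was described here for 10 genes, Fos, Fosb, Fosl1, Fosl2, Jun, Junb, Jund, Atf3, Maff and Batf. They were the probe sets whose RefSeq accession was paired with 1 of these listed symbols. Each symbol had 1 probe set, and they make up 10 of the 14351 genes tested.

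The 24 arrays held liver RNA of 12 adult mice, 12 to 14 months old, and 12 young mice, 4 to 5 weeks old. In each age, 3 mice underwent 30 min, 3 underwent 60 min and 3 underwent 90 min of partial liver ischemia, which stops blood flow to some of its lobes, and 3 had a sham operation. All 24 mice were therefore operated on, and in all of them the median and left lobes were taken, so that no group is unoperated liver. The titles write the times as 30/0, 60/0 and 90/0 without saying what the 0 stands for, and strain, sex and the time at which sham livers were taken are not given in the sources used here.

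Each deposited value is relative to sham: within an age the 3 sham arrays average 1 for every probe set. Levels of adult and young sham livers, and levels of different genes, cannot be set against each other, and an absent cell type cannot be recognised from the ratios. Array medians ran from 0.955 to 1.02, and with 3 arrays per group the number of arrays limits the precision. Arrays of a group are numbered as deposited, and the number only names an array. Changes below are differences of mean log2 ratios from sham of the same age, with the standard error (SE) from limma and p-values adjusted by Benjamini-Hochberg over all 14351 genes, and a gene was called at an adjusted p under 0.05. Liver lobes are a mixture, so fewer cells of a type and less RNA per cell cannot be told apart.

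Against sham, Fosl2 fell in adult livers after 60 min and in young livers after 30 min of ischemia, Atf3 rose in adult livers after 90 min, and no other member passed the test in any of the 6 comparisons with sham. Jun and Fos had the largest increases over the mean of the 3 times, more than doubling in both ages, but were not called. Their adult sham arrays differed by up to 3.40-fold and 5.46-fold from each other. In adult livers after 60 min 1 of 10 members was called, lower, against 9.78% of all genes called lower, and after 90 min 1 of 10 was called, higher, against 1.17% of all genes called higher. In young livers after 30 min 1 of 10 was called, lower, against 0.0488% of all genes. Adult livers after 30 min and young livers after 60 and 90 min gave 0 members, where 0%, 0.0279% and 0.181% of all genes were called. At an unadjusted p under 0.05 those 3 comparisons held 2, 3 and 3 members, beside 10.4%, 10.4% and 9% of all genes. Young livers after 30 min and adult livers after 60 and 90 min held 3 members each, beside 8.36%, 33.3% and 28.6% of all genes.

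**Figure D1:**
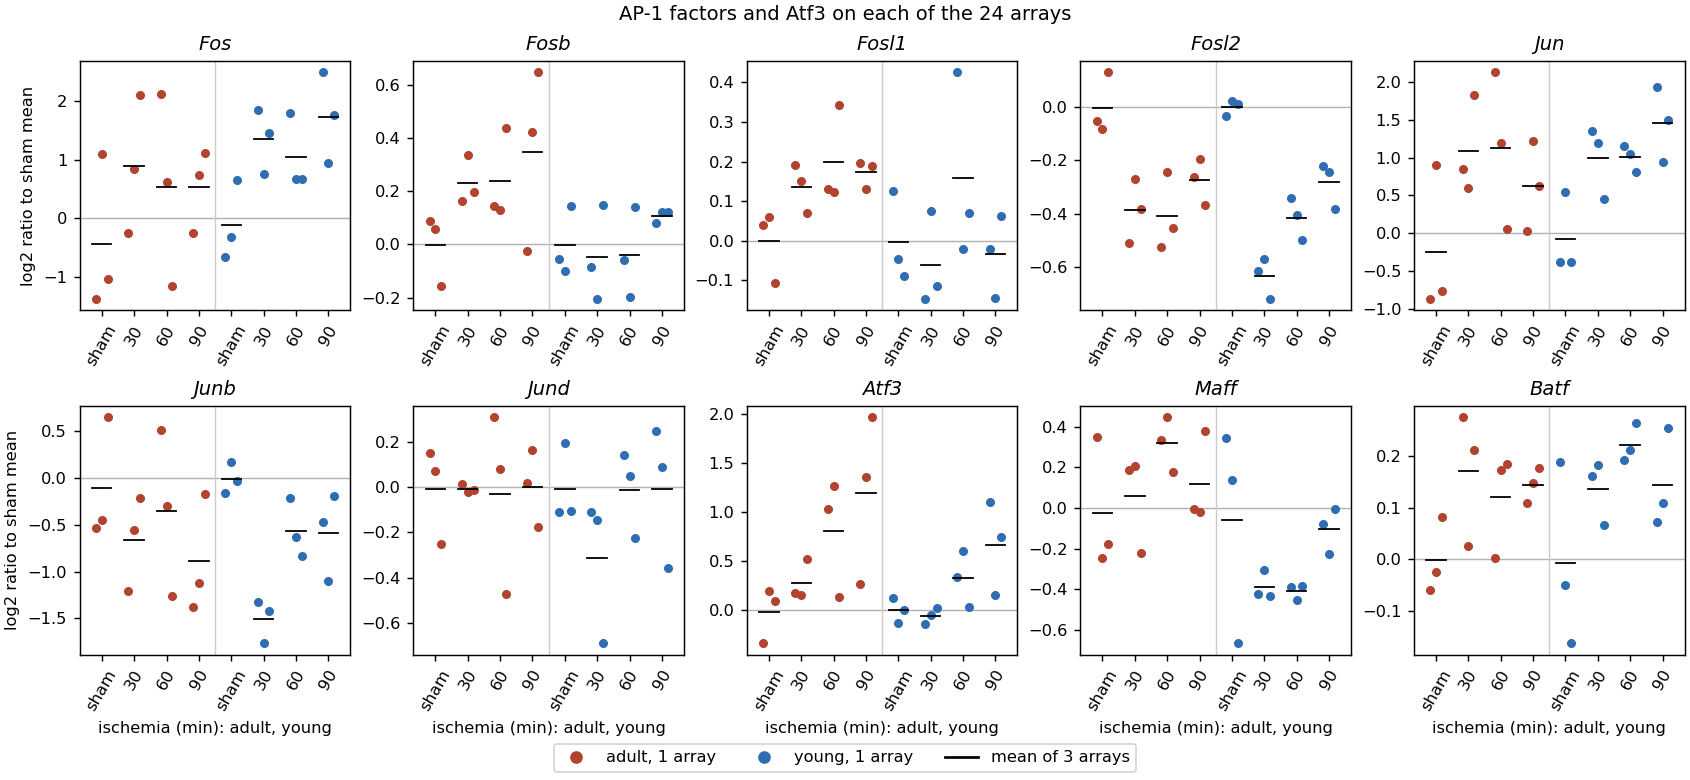
Log2 ratio to the sham mean of the same age (vertical axis, scaled separately for each gene) of the 10 genes on every array, with adult arrays to the left of young arrays and sham followed by 30, 60 and 90 min. Each point is 1 array and each bar the mean of 3 arrays. The Fosl2 points after ischemia lie below all sham points of their age. Adult sham points of Fos and Jun overlap the ischemia points at each time. In young livers all Fos ischemia points lie above sham, and Jun overlaps sham only at 30 min.

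**Figure D2:**
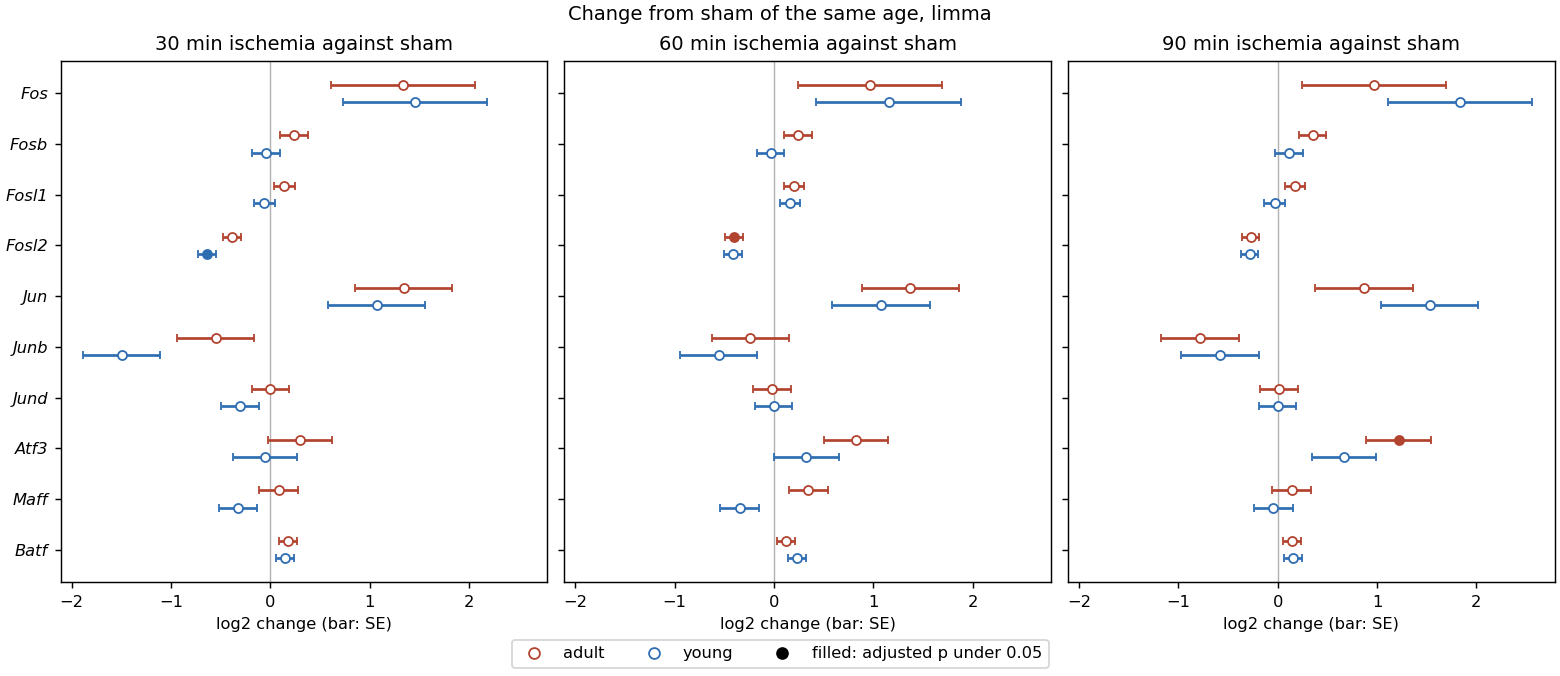
Log2 change from sham of the same age for each gene after 30, 60 and 90 min (horizontal axis), with adult above young and bars of 1 SE. Filled points passed at an adjusted p under 0.05: Fosl2 in adult livers at 60 min, Atf3 in adult livers at 90 min and Fosl2 in young livers at 30 min.

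The promoters are shown of Fosl2 and Atf3, which were called, and of Fos and Jun, which had the largest increases but were not called. The letters tell which known control sequences lie next to their starts. The 250 bases before the start are given 5′ to 3′ on the gene's own strand, from RefSeq on GRCm38.p6, in lower case. Capitals mark the core TGACG of the cyclic AMP response element on either strand, the Jun-type site TGACATCA, and the TATA box TATAAA. The windows lie at chr5:32136222-32136471 on the plus strand for Fosl2, chr12:85473640-85473889 on the plus strand for Fos, chr4:95052223-95052472 on the minus strand for Jun, and chr1:191183334-191183583 on the minus strand for Atf3.
Fosl2: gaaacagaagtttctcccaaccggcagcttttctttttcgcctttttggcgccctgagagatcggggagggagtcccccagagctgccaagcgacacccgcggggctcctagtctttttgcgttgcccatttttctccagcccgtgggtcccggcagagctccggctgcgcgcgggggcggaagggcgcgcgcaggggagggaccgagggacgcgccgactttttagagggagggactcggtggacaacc
Fos: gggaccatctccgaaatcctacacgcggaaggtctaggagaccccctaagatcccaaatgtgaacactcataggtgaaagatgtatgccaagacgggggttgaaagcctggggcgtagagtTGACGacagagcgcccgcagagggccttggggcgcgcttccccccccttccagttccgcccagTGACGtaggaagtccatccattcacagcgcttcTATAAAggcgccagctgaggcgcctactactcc
Jun: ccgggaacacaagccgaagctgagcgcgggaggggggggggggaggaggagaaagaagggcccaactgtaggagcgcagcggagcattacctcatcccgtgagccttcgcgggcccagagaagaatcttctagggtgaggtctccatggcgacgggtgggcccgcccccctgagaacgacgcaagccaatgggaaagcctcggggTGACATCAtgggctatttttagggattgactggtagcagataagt
Atf3: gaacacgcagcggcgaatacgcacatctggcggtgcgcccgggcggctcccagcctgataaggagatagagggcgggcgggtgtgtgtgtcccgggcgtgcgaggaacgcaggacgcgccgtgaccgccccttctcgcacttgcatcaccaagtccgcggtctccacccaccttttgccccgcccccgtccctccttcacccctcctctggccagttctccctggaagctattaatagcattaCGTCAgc

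Motifs were searched on both strands from 250 bases before to 50 after the start, where -1 is the base before the start. The Fos window held TGACG at -129 to -125 and at -66 to -62, and TATAAA at -33 to -28. The Jun window held TGACATCA at -45 to -38, and the Atf3 window TGACG at -7 to -3, read on the opposite strand. The Fosl2 window held none of these 3. The GC box GGGCGG was found in all 4 windows, 5 times in that of Atf3 and 1 time each in those of Fosl2, Fos and Jun.

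Over all members, 9 had a window, and Maff had 3, giving 11 windows. TGACG, which is also part of the full element TGACGTCA, was in 7 of the 11 and in 20.8% of 32851 RefSeq windows of the same length. GGGCGG was in 8 of 11 and 35.7%, TATAAA in 2 of 11 and 13.6%, TGACATCA in 2 of 11 and 3.62%, and TGACGTCA in 1 of 11, a Maff window, and 1.79%. The AP-1 site TGACTCA was in 0 of 11 and 5.2%, and the CArG box of the serum response element in 0 of 11 and 1.63%. The windows of Jund and Batf and 1 of Maff held 46.7%, 49.7% and 50.3% G and C, and the others 58.7% to 68.3%. The median of all RefSeq windows was 52.7%, and the part of base content in these shares was not tested. A match is a description of letters, and 0 matches says only that these letters are not in these windows.

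Fosl2 encodes Fra-2, a Fos protein without the strong activation domain of Fos, and it gave the steadiest response of the group. In adult livers its ratios were 0.703, 0.830 and 0.768 after 30 min, 0.695, 0.845 and 0.731 after 60 min, and 0.833, 0.873 and 0.775 after 90 min, against 0.963, 0.945 and 1.09 in adult sham livers. In young livers they were 0.654, 0.673 and 0.608 after 30 min, 0.790, 0.755 and 0.708 after 60 min, and 0.857, 0.845 and 0.768 after 90 min, against 0.977, 1.02 and 1.01 in young sham livers. All 18 ischemia arrays were therefore below all 3 sham arrays of their age. Fosl2 was the only member with this pattern in all 6 comparisons, which 37 genes, or 0.258% of all genes, showed. Lying below all sham arrays at a single time was more common, at 6.29%, 25.9% and 26.4% of all genes in adult livers after 30, 60 and 90 min.

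In adult livers the Fosl2 change was -0.38 after 30 min, -0.40 after 60 min and -0.27 after 90 min (log2; SE 0.089; adjusted p = 0.411, 0.0282 and 0.0639). The largest of the 6 changes was that of young livers after 30 min, at -0.63 (adjusted p = 0.00389), followed there by -0.41 after 60 min and -0.28 after 90 min (0.0968 and 0.242). Of these 6 changes the call at 30 min in young livers held under each of 9 other settings, 2 of which differ only in the choice of probe sets and leave its own values as they are, and in each of 24 fits that omitted 1 array. The adult call at 60 min was lost in 2 of 9 settings, with quantile normalization (adjusted p = 0.51) and with adult arrays alone (0.0501), and without adult sham array 1, adult sham array 3 or adult 60 min array 3.

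Over the mean of the 3 times, Fosl2 fell by 0.35 ± 0.073 in adult livers (log2, SE; adjusted p = 0.0212) and by 0.44 ± 0.073 in young livers (adjusted p = 0.00693). It was the only one of 10 members called in either mean, where 8.58% of all genes were called lower in adult and 0.293% in young livers. The young call was lost without young sham array 1 or 2. The adult call was lost without adult sham array 1 (adjusted p = 0.071) or 3 (0.143) and with adult arrays alone (0.0518), and with quantile normalization the change was -0.21 (0.378). The adult minus young difference of these means was 0.09, with a 95% interval from -0.12 to 0.30 (adjusted p = 0.802). At 30 min that difference was 0.25, with an interval from -0.01 to 0.51 (adjusted p = 1.00). Young values at 60 min were 0.22 above those at 30 min and at 90 min 0.13 above those at 60 min on the log2 scale, and neither step passed (adjusted p = 0.966 and 0.653).

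Each sample title ends in a code of unstated meaning, and some sham and ischemia arrays of an age had its first part in common. Within such codes Fosl2 lay below sham in 8 of 8 adult comparisons, between -0.58 and -0.16, and in 5 of 5 young ones, between -0.65 and -0.21. The direction follows from the lack of overlap with sham given above, so these counts are no independent support. With this code as a block the adult change at 90 min passed as well (adjusted p = 0.042). Its second part was 5 for 5 of the 6 sham arrays, and most ischemia groups had a number of their own, so that it cannot be told apart from the groups.

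Fos is the classic immediate early gene, transcribed without new protein synthesis and short-lived as a message. In adult livers its ratios were 0.840, 1.79 and 4.29 after 30 min, 4.34, 1.53 and 0.452 after 60 min, and 0.838, 1.66 and 2.17 after 90 min, against 0.388, 2.12 and 0.489 in adult sham livers. In young livers they were 3.60, 1.68 and 2.72 after 30 min, 3.44, 1.59 and 1.60 after 60 min, and 5.58, 1.93 and 3.38 after 90 min, against 0.633, 0.803 and 1.56 in young sham livers. All 9 young ischemia arrays lay above the 3 young sham arrays, although the lowest, 1.59, was close to the highest sham value, 1.56. Adult arrays overlapped sham at every time: adult sham array 2 stood at 2.12, and 6 of 9 ischemia arrays were below it.

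Young Fos was above all sham arrays at 30, 60 and 90 min, which 5.31%, 5.54% and 4.45% of all genes were. The changes were 1.33, 0.96 and 0.97 in adult livers and 1.46, 1.15 and 1.84 in young livers after 30, 60 and 90 min, with an SE of 0.73. None was called: the adjusted p lay between 0.366 and 0.508 in adult and between 0.397 and 0.611 in young livers. The young change at 90 min and the young mean of the 3 times each passed in 1 of 9 other settings (adjusted p = 0.0194 and 0.0434). Over the 3 times the change was 1.09 in adult livers and 1.48 in young livers (adjusted p = 0.201 and 0.339). With 1 array left out the adult value ran from 0.62 without adult sham array 1 (adjusted p = 0.579) to 1.85 without adult sham array 2 (0.0725). The adult value at 60 min ran from 0.17 without adult 60 min array 1 to 1.80 without adult 60 min array 3. Within shared title codes Fos was above sham in 4 of 8 adult and 5 of 5 young comparisons. The young count follows from the lack of overlap with young sham arrays. The adult minus young difference of means was -0.39, with an interval from -2.14 to 1.35, which leaves room for a large difference either way.

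Fosb, whose product pairs with Jun proteins and is best known from the brain, lay slightly above sham in adult livers. Its adult ratios were 1.12, 1.26 and 1.15 after 30 min, 1.10, 1.09 and 1.35 after 60 min and 0.983, 1.34 and 1.57 after 90 min, against 1.06, 1.04 and 0.898 in sham livers. The first 2 groups lay above sham, as for 5.17% and 11.1% of all genes, and the third overlapped it. The changes were 0.24, 0.24 and 0.35 (SE 0.14; adjusted p = 0.525, 0.231 and 0.107). In young livers 9 ischemia arrays ran from 0.868 through a median of 1.06 to 1.11, and 6 of them lay within the range of the sham livers, 0.933 to 1.10, with a mean change of 0.01.

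Fosl1 encodes Fra-1, which like Fra-2 lacks the strong activation domain of Fos. All 9 adult ischemia arrays, from 1.05 through a median of 1.11 to 1.27, lay above adult sham livers, at 1.03, 1.04 and 0.929. This was a small step: the changes were 0.14, 0.20 and 0.17 after 30, 60 and 90 min (SE 0.10; adjusted p = 0.606, 0.187 and 0.271). Lying above all sham arrays at 30, 60 and 90 min was found for 5.17%, 11.1% and 12.8% of all genes in adult livers. In young livers Fosl1 ran from 0.903 through 0.986 to 1.34 after ischemia, against 0.940 through 0.968 to 1.09 in sham livers, and overlapped at every time.

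Jun is the main partner of the Fos proteins and can also pair with itself, and its own promoter carries the TGACATCA site shown above. In adult livers its ratios were 1.81, 1.51 and 3.57 after 30 min, 4.38, 2.29 and 1.04 after 60 min, and 1.02, 2.33 and 1.54 after 90 min, against 0.548, 1.86 and 0.589 in adult sham livers. In young livers they were 2.56, 2.28 and 1.37 after 30 min, 2.23, 2.06 and 1.76 after 60 min, and 3.82, 1.93 and 2.83 after 90 min, against 0.769, 1.46 and 0.768 in young sham livers. In young livers only the 30 min group overlapped sham, through 1 array at 1.37. The young 60 and 90 min groups lay above all young sham arrays, as for 5.54% and 4.45% of all genes. In adult livers the groups overlapped at each time through sham array 2. Adult sham array 2 was thus the highest sham array for both Fos and Jun.

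Jun lay above sham on average in all 6 comparisons, by 1.34, 1.37 and 0.87 in adult livers and 1.07, 1.08 and 1.53 in young livers after 30, 60 and 90 min, with an SE of 0.49. None was called, and the lowest adjusted p was 0.0644, in adult livers at 60 min. Of 9 other settings, 1 passed for that change (adjusted p = 0.0412) and 2 for young livers at 90 min (lowest 0.0447). The adult and young means of the 3 times each passed in 1 of 9 (0.0360 and 0.0332). Over the 3 times the change was 1.19 in adult livers and 1.23 in young livers (SE 0.40; adjusted p = 0.0555 and 0.205). With 1 array left out the adult change ran from 0.88 without adult sham array 1 (adjusted p = 0.222) to 1.77 without adult sham array 2 (0.0254). It passed there and without adult 30 min array 3 (1.07; 0.0482) or adult 60 min array 3 (1.37; 0.0467). The adult minus young difference was -0.03, with an interval from -1.21 to 1.14. Fos, Jun and Batf were the 3 members whose mean lay above sham in all 6 comparisons, as it did for 11.6% of all genes.

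Junb pairs with the same partners as Jun but activates most AP-1 sites less strongly, and it moved the other way. In adult livers its ratios were 0.434, 0.681 and 0.862 after 30 min, 1.43, 0.813 and 0.419 after 60 min, and 0.385, 0.459 and 0.890 after 90 min, against 0.692, 0.733 and 1.57 in adult sham livers. Young livers had Junb ratios of 0.400, 0.294 and 0.373 after 30 min, 0.861, 0.645 and 0.560 after 60 min, and 0.725, 0.467 and 0.874 after 90 min, against 0.898, 1.12 and 0.978 in young sham livers. Adult arrays overlapped sham at each time, while all 9 young ischemia arrays lay below the young sham arrays. The change in young livers at 30 min was -1.50 ± 0.39 (log2, SE), the largest decrease of any member, and did not pass (adjusted p = 0.156).

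With array weights or with young arrays alone the Junb change at 30 min did pass (adjusted p = 0.0096 and 0.0098). The other 5 Junb changes were between -0.78 and -0.24, and their adjusted p lay between 0.189 and 0.746. Over the 3 times the change was -0.52 in adult livers and -0.88 in young livers (adjusted p = 0.249 and 0.272). Junb and Fosl2 were the 2 members whose mean lay below sham in all 6 comparisons, as it did for 24.1% of all genes. The adult Junb value at 60 min, -0.24, turned to 0.06 with quantile normalization, to 0.14 without adult sham array 3 and to 0.22 without adult 60 min array 3. Lying below all young sham arrays at 30, 60 and 90 min, as both did, was found for 9.49%, 7.78% and 9.50% of all genes at the single times.

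Jund, the member of the Jun family that is made steadily in resting cells, stayed near its sham mean in 5 of 6 comparisons, with changes between -0.02 and 0.01. In young livers after 30 min it was 0.927, 0.905 and 0.620, against 0.926, 1.15 and 0.929 in young sham livers, a change of -0.31 ± 0.19 (log2, SE; adjusted p = 0.688). The 95% intervals of the other 5 reached from about -0.41 to 0.40, so changes of that size could not be seen with 3 arrays per group.

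Atf3 is a stress gene induced by many kinds of injury, including ischemia, and can hold back inflammatory genes. In adult livers its ratios were 1.13, 1.11 and 1.44 after 30 min, 2.05, 2.40 and 1.10 after 60 min, and 1.20, 2.56 and 3.93 after 90 min, against 0.790, 1.15 and 1.07 in adult sham livers. In young livers they were 0.903, 0.965 and 1.02 after 30 min, 1.26, 1.52 and 1.02 after 60 min, and 2.15, 1.12 and 1.67 after 90 min, against 1.09, 0.912 and 0.998 in young sham livers. The 90 min group lay above sham in both ages, as for 12.8% of all genes in adult and 4.45% in young livers, and in each 1 array exceeded the highest sham array only narrowly. The 30 and 60 min groups overlapped sham in both ages.

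In adult livers Atf3 rose by 1.22 ± 0.32 after 90 min (log2, SE; adjusted p = 0.0325), after changes of 0.30 at 30 min and 0.83 at 60 min (adjusted p = 0.709 and 0.0845). Young values were -0.05, 0.33 and 0.67 at 30, 60 and 90 min (adjusted p = 0.973, 0.716 and 0.558). The means thus ordered 30, 60, 90 min in both ages, but no step between neighbouring times passed: the adult steps were 0.53 and 0.39 (adjusted p = 0.589 and 0.999) and the young steps 0.38 and 0.35 (0.996 and 0.753). The adult minus young difference at 90 min was 0.55, with an interval from -0.41 to 1.50 (adjusted p = 0.608). The adult call at 90 min was lost with quantile normalization (adjusted p = 0.372), when blocked on the title code (0.0596) and with adult arrays alone (0.0820). It was also lost without adult sham array 1 (0.0980), adult sham array 3 (0.114), adult 90 min array 2 (0.0924) or adult 90 min array 3, where the change was 0.83 (0.135).

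Maff lay on opposite sides of the sham mean in the ages at 60 min. After 60 min its ratios were 1.26, 1.37 and 1.13 in adult livers, against 1.27, 0.843 and 0.883 in adult sham livers. They were 0.764, 0.730 and 0.767 in young livers after 60 min, against 1.27, 1.10 and 0.630 in young sham livers. The sham arrays spanned all but 1 of these values, and the changes of 0.35 in adult and -0.35 in young livers did not pass (SE 0.20; adjusted p = 0.222 and 0.542). At 30 and 90 min the changes were 0.08 and 0.14 in adult livers and -0.33 and -0.04 in young livers.

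Batf lay a little above sham throughout. Its 9 ischemia arrays ran from 1.00 through a median of 1.13 to 1.21 in adult livers, against 0.959, 0.983 and 1.06 in adult sham livers. Young Batf ratios ran from 1.05 through 1.14 to 1.20, against 1.14, 0.966 and 0.893 in young sham livers. The 6 changes were between 0.12 and 0.23 (SE 0.091), with adjusted p between 0.288 and 0.696, and the ischemia group lay above sham without overlap at 90 min in adult and 60 min in young livers, as for 12.8% and 5.54% of all genes.

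No adult minus young difference and no step between neighbouring times passed for any member, and 0 of 14351 genes passed in any of them. The ages had no first part of the title code in common, so age cannot be told apart from that code. At an unadjusted p under 0.05 the age difference held 302 genes (2.1%) at 30 min, 978 (6.81%) at 60 min and 1612 (11.2%) at 90 min. Of the members only Maff at 60 min was among these. Between neighbouring times it held 1260 and 458 genes in adult and 741 and 1339 in young livers, and the members among them were Fosl1, Fosl2 and Junb, all 3 from 30 to 60 min in young livers. Medians of the 10 members were 0.18 in adult livers and 0.02 in young livers over the mean of the 3 times, beside -0.04 and -0.02 for all genes.

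Across the 24 arrays the members fell into pairs with like and unlike patterns. Pearson's r of log2 ratios is given as a description, since arrays share their scaling to sham and their groups. Fos and Jun moved together most closely, with r = 0.84 (Spearman's rho 0.78), and 1 other gene, Ier2, had a higher r with Fos. With the mean of each group removed, r was 0.79, although the order of the arrays differed in some groups. In young sham livers, for example, the array with the highest Fos ratio, 1.56, had the lowest Jun ratio, 0.768. Fos and Junb had r = 0.04 over all arrays and 0.63 with group means removed. Fosl2 and Junb had r = 0.57, against 0.09 with group means removed. Fosl2 and Jun had r = -0.54, against -0.05 with group means removed.

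**Figure D3:**
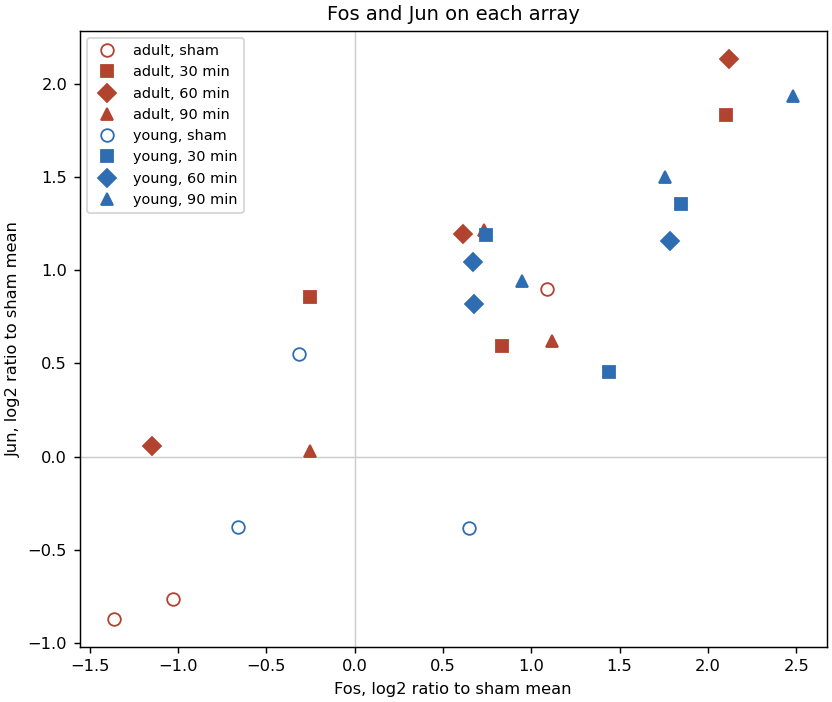
Jun (vertical axis) against Fos (horizontal axis) on each of the 24 arrays, both as log2 ratio to the sham mean of the same age, with open circles for sham. The arrays run along 1 line (r = 0.84), and adult sham array 2 lies among the ischemia arrays at ratios of 2.12 for Fos and 1.86 for Jun.

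The 5 genes most like Fos over the 24 arrays were Ier2 (r = 0.85), Jun, Dusp1 (0.84), Btg2 (0.77) and Zfp36 (0.77). The 5 most like Jun were Fos, Ier2 (0.81), Dusp1 (0.80), Btg2 (0.80) and Zfp36 (0.78), so the 2 lists held the same genes apart from Fos and Jun themselves. Ier2 and Btg2 are immediate early genes, Dusp1 is a phosphatase of MAP kinases and Zfp36 a protein that destabilises messenger RNAs. With group means removed, r with Fos was 0.82 for Ier2, 0.84 for Dusp1, 0.82 for Btg2 and 0.78 for Zfp36.

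For Atf3 the 5 were Ppp1r15a (r = 0.77), Ccn1 (0.75), Fzd7 (0.72), Dhx35 (0.69) and Cxcl2 (0.66). Ppp1r15a encodes GADD34, which reverses the stress block on translation, and Ccn1 encodes a secreted matrix protein. By Spearman's rho 2 of these 5 stayed among the first 5, and 1 with group means removed. For Fosl2 they were Rabgef1 (r = 0.86), Simc1 (0.83), Grtp1 (0.82), Map3k8 (0.82) and Cxcl1 (0.81). With group means removed these were between 0.10 and 0.49, and 0 of the 5 stayed among the first 5, so the likeness to Fosl2 lay between groups and much less within them.

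Of all 14351 genes 10.7% were called in the adult mean of the 3 times and 0.404% in the young mean, and the lists below are to be read against these shares. With quantile normalization 0 of 14351 genes were called in the adult mean, so the adult calls below depend on the scaling. Among 20 other AP-1, ATF and small Maf genes measured, of 23 listed, 3 fell and 0 rose in the adult mean of the 3 times, beside 8.58% and 2.12% of all genes. They were Mafg, a small Maf protein (-0.41 ± 0.093; adjusted p = 0.0234), Atf2, a partner of Jun (-0.55 ± 0.13; 0.0234), and Atf1, a factor bound at cyclic AMP elements (-0.48 ± 0.14; 0.0359). In young livers 0 of 20 passed, and 6 had an unadjusted p under 0.05, as did 10.7% of all genes. Mafg was -0.41 there (adjusted p = 0.0557), Jdp2, a repressor that pairs with Jun, -0.55 (0.0760) and Nfe2l2, the oxidative stress factor NRF2, 0.46 (0.132). The list's median was -0.10 in adult and 0.01 in young livers.

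Of the kinases and factors upstream of AP-1, 31 of 33 were measured, and in the adult mean 5 fell and 1 rose, beside 8.58% and 2.12% of all genes. Map3k7, or TAK1, which feeds several MAP kinase cascades, fell by 0.55 ± 0.090 on the log2 scale (adjusted p = 0.00842). Map3k8, Map3k1 and Map2k1, upstream kinases of these cascades, were called at -0.51, -0.42 and -0.44 (adjusted p = 0.0289, 0.0360 and 0.0373). Elk4, which binds beside serum response factor at early gene promoters, rose by 0.32 ± 0.10 (0.0468). In young livers 1 of 31 fell and 0 rose, beside 0.293% and 0.111% of all genes: Map3k8, at -0.68 ± 0.13 (adjusted p = 0.0228), the same kinase that stood among the genes most like Fosl2. Map2k6 was -0.74 (0.170) and Map3k7 -0.26 (0.238) there. The list's median was -0.14 in adult and 0.02 in young livers.

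Of proteins listed under the heading of degrading or holding back AP-1, 12 of 18 were measured. In the adult mean 4 fell and 0 rose, beside 8.58% and 2.12% of all genes. The heading is loose, since binding of Jun by Cops5, 1 of these 4, need not hold AP-1 back. Sirt1, a deacetylase, was called at -0.61 ± 0.16 (adjusted p = 0.0296), Nr3c1, the glucocorticoid receptor, at -0.35 (0.0362), Cops5, a signalosome subunit that binds Jun, at -0.48 (0.0398), and Dusp16, a phosphatase of JNK, at -0.39 (0.0419). In young livers 0 of 12 passed, and 3 had an unadjusted p under 0.05, as did 10.7% of all genes. Dusp6, a phosphatase of MAP kinases, averaged 2.30 ± 0.25, 2.03 ± 0.48 and 2.02 ± 0.15 (ratio, SD, n = 3 each) after 30, 60 and 90 min, against 1.00 ± 0.072 in young sham livers. Its mean change there was 1.07 ± 0.25 (log2, SE; adjusted p = 0.0638), and Nr3c1 and Sirt1 were -0.32 and -0.37 (0.177 and 0.386). The median of the list was 0.03 in adult and -0.04 in young livers.

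All 28 listed AP-1 targets were measured, and 0 passed in either mean, with 5 in adult and 6 in young livers at an unadjusted p under 0.05, beside 33.5% and 10.7% of all genes. In adult livers the lowest adjusted p belonged to Hmox1, heme oxygenase 1, at -0.48 (0.0513), Cd44, an adhesion receptor, at -0.74 (0.0572) and Bcl3 at -0.42 (0.0600). In young livers they belonged to the metallothioneins Mt2 and Mt1, at -2.72 and -2.16 (adjusted p = 0.211 and 0.267), and Hmox1 at -0.39 (0.342). At single times 1 target rose, Tnf in adult livers at 60 min (0.42; adjusted p = 0.0435), and 2 fell, Cd44 and Hmox1 in adult livers at 90 min (-1.20 and -0.67; 0.0284 and 0.0408). Of all genes 2.15% rose and 6.28% fell in those comparisons. The medians were -0.03 in adult and -0.05 in young livers, beside -0.04 and -0.02 for all genes.

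**Figure D4:**
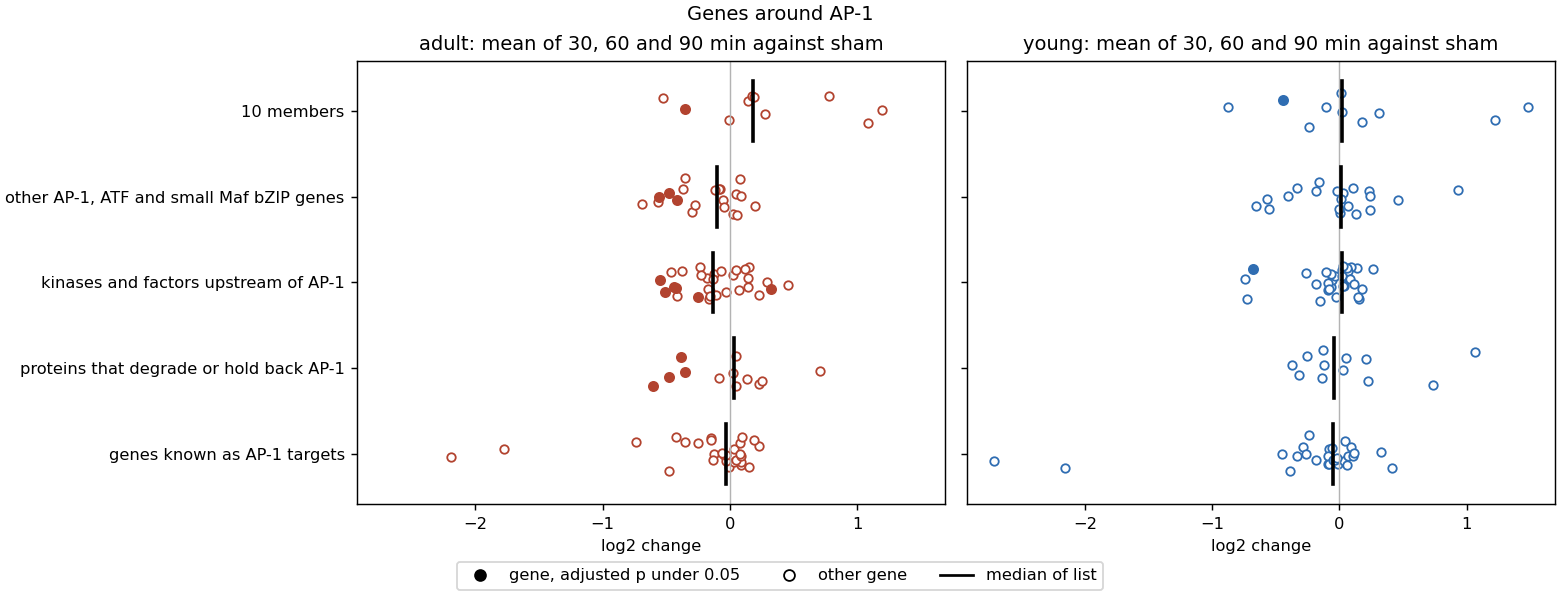
Log2 change over the mean of 30, 60 and 90 min against sham (horizontal axis) for each measured gene of 5 lists, with adult livers in the left panel and young livers in the right panel. Filled points passed at an adjusted p under 0.05 and black lines are list medians, which lie between -0.14 and 0.18 in adult and between -0.05 and 0.02 in young livers.

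Markers of liver cell types were read in the comparisons where Fosl2 or Atf3 was called. Of 12 Kupffer cell markers measured, of 13 listed, 11 fell in adult livers at 90 min, where Atf3 rose and 6.28% of all genes fell. Their mean log2 ratio ran from -1.72 to -1.07 on the adult 90 min arrays, against -0.50 to 0.50 on the adult sham arrays. At 60 min in adult livers, where Fosl2 was called, 1 of 12 was called lower, beside 9.78% of all genes, with array means from -1.06 to -0.22. All 12 lay below 0 there, with a median of -0.54 beside -0.05 for all genes. At an unadjusted p under 0.05 there were 6 of 12, beside 33.3% of all genes. In young livers at 30 min, where Fosl2 was also called, 0 of 12 were called, 1 had an unadjusted p under 0.05, and the median change was -0.02, with array means from -0.37 to 0.07, against -0.17 to 0.26 in young sham livers.

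Of 12 sinusoidal endothelial markers 10 lay below 0 and 0 were called in adult livers at 60 min. In adult livers at 90 min all 12 lay below 0, with a median of -0.31, and 1 was called lower, beside 6.28% of all genes. In young livers at 30 min 11 lay below 0 and 0 were called, with array means from -0.36 to -0.24, against -0.10 to 0.08 in young sham livers. At an unadjusted p under 0.05 there were 4 and 5 endothelial markers in adult livers at 60 and 90 min, beside 33.3% and 28.6% of all genes. In young livers at 30 min there were 3, beside 8.36% of all genes. All 10 hepatocyte markers measured, of 12 listed, lay below 0 in adult livers at 60 and 90 min, with medians of -0.30 and -0.22, and 0 and 1 of them were called. At 60 min 8 of the 10 had an unadjusted p under 0.05, beside 33.3% of all genes. In young livers at 30 min 9 of 10 lay below 0, with a median of -0.14, 0 were called and 1 had an unadjusted p under 0.05. Neutrophil markers, 10 of 12 measured, had medians of -0.12 and -0.16 in adult livers at 60 and 90 min. In young livers at 30 min their median was 0.07, and 0, 1 and 0 of them were called. In adult livers at 90 min 2 of 12 stellate cell markers were called lower. Of T and NK cell, B cell, cholangiocyte and red blood cell markers 0 of 11, 0 of 4, 0 of 6 and 0 of 1 were called there. The medians of these lists, from stellate to red blood cell, were -0.21, 0.16, -0.003, -0.03 and 0.06. In adult livers at 60 min they were -0.09, 0.17, 0.21, -0.06 and -0.23, with 0 called. In young livers at 30 min they were -0.12, -0.02, 0.02, -0.07 and 0.04, with 0 called. The hepatocyte, neutrophil and stellate calls at 90 min were all lower, beside 6.28% of all genes. The part of these cell types in the changes of Fosl2 and Atf3 was not tested.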

How the data were processed

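Affymetrix 3' arrays were run on liver RNA of 24 mice. Per the submitters' processing notes the authors used RMA, and the deposited table holds linear ratios, with the 3 sham arrays of each age averaging 1 within 2e-07, so each age was scaled before deposit. Build, version and background steps are not given in the sources used here. Of 26180 probe sets, 15228 had 1 gene symbol through RefSeq accessions and 10952 had none. For 661 genes with several, 1 probe set was chosen by accession type and number, leaving 14351 genes.

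A model of 8 group means was fitted to log2 ratios, with no pseudocount, by limma 3.58.1 under R 4.3.3, leaving 16 residual degrees of freedom beside a prior of 4.53. Two-sided p-values were adjusted by Benjamini-Hochberg within each comparison, and the scripts were tested on simulated data. They measure the spread between mice as the labels describe them. The members, gene lists and tests were chosen with earlier results of these data known. Genes are named by rule: all members, the 5 genes most like Fos, Jun, Atf3 and Fosl2, and from each list the 3 lowest adjusted p in each age's mean, plus called genes up to 6; of these, 1 is not reported here. Called AP-1 targets at single times were named after their values were seen. Marker lists for B cells, cholangiocytes, stellate cells, T and NK cells and red blood cells were also measured. Alternatives were each probe set alone, the mean of probe sets, quantile normalization, median centring, array weights, a block for the title code, a robust prior, arrays of 1 age, log2(ratio + 0.1) and each array left out. Protein stretches were not used here.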

Additional observations from a re-analysis of the deposited data

Results flagged for a closer look

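Maff at 60 min was singled out because all 3 adult arrays lay above the sham mean of their age, at 1.26, 1.37 and 1.13, and all 3 young arrays below theirs, at 0.764, 0.730 and 0.767. The adult minus young difference was 0.693 on the log2 scale, with a 95% interval from 0.12 to 1.27. Its unadjusted p was 0.0205 and its adjusted p 0.704 in limma, so the difference did not pass over all genes, of which 6.81% had an unadjusted p under 0.05. The sham arrays spanned 0.843 to 1.27 in adult and 0.630 to 1.27 in young livers, which covers all but 1 of the ischemia values.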

How the results depend on the processing

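The counts of members called depended on the setting. With array weights they were 1 in adult livers at 30 min, 3 in adult livers at 60 min, 3 in the adult mean of the 3 times, 2, 1 and 3 in young livers at 30, 60 and 90 min, and 4 in the young mean. With quantile normalization they were 0 in adult livers at 60 min, at 90 min and in the adult mean. With arrays of 1 age only they were 0 in those same 3 comparisons, 2 and 1 in young livers at 30 and 90 min, and 3 in the young mean. With each array left out in turn they ran from 0 to 2 in adult livers at 60 min, 0 to 1 at 90 min, 0 to 3 in the adult mean and 0 to 1 in the young mean. The 27 changes with an unadjusted p under 0.05 were followed, at single times, over means of the 3 times and for the Maff age difference. Most of these 27 were not called, so keeping the side of the adjusted p threshold of 0.05 mostly meant staying uncalled. Under the 9 settings 218 recomputed values kept their side, 7 lost the call and 17 gained it. The 2 settings on probe sets leave the members' own values as they are. With arrays left out 627 kept their side, 11 lost the call and 10 gained it. None of these reversed. Over all 80 changes 52 of 2640 recomputed values turned sign, the largest of them Junb in adult livers at 60 min, 0.239 below sham on the log2 scale. Over all genes the calls in adult livers at 60 and 90 min and in the adult mean, 1712, 1069 and 1535, were 0, 3 and 0 with quantile normalization, 2924, 3026 and 4190 with array weights, and 587, 47 and 17 with adult arrays alone. Those in young livers at 30, 60 and 90 min and in the young mean, 8, 4, 26 and 58, were 304, 30, 869 and 595 with array weights, 46, 16, 66 and 136 with young arrays alone, and 6, 2, 4 and 13 with the title code block. Adult livers at 30 min had 0, but 2350 with array weights. The cause of these shifts was not tested. The labels give no replicate numbers to pair by. A block for the code's first part left the count in adult livers at 90 min at 1, with Fosl2 in place of Atf3. Signal over background is not kept in ratios, so dim probe sets could not be set apart.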

Other observations

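The genes most like Fos and Jun were not called themselves. Dusp1 was 4.69, 1.51 and 0.739 (ratio) in adult livers after 60 min, against 0.917, 1.21 and 0.876 in adult sham livers, and Btg2 was 2.97, 1.60 and 0.577, against 0.722, 1.31 and 0.970. The adult 60 min array with the highest Fos thus also had the highest Dusp1 and Btg2 of its group, and the one with the lowest Fos the lowest. Dusp1 and Btg2 were chosen for their likeness to Fos over the same arrays, so this order is no independent finding. Over the 3 times Dusp1 was 0.71 in adult and 0.73 in young livers (log2; adjusted p = 0.191 and 0.507), and Ier2 0.50 and 0.70 (0.169 and 0.267).

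Of the genes most like Atf3, Ccn1 rose in adult livers over the 3 times by 0.73 ± 0.12 (log2, SE; adjusted p = 0.00842) and was 0.47 in young livers (0.0784). Its adult ratios after 60 min, 1.78, 1.91 and 1.81, lay close together, against 0.931, 1.11 and 0.956 in adult sham livers. Ppp1r15a rose by 0.30 in adult livers (0.0426) and was 0.12 in young livers (0.686). Of those most like Fosl2, Rabgef1, which acts on endosomal Rab5, fell in adult and young livers by 0.37 and 0.54 (adjusted p = 0.0250 and 0.00687). Cxcl1, a chemokine that attracts neutrophils, fell by 2.29 and 2.40 (0.0194 and 0.0168). These genes were chosen for their likeness to Atf3 or Fosl2 over the same arrays, so their direction is no independent finding.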
